A study of Homo sapiens with 12 samples.

Results

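The genes described here encode the proteins that license and fire replication origins and that build and protect the replication fork, with the subunits of the MCM helicase left out. They were taken by name, as the 48 rows whose gene symbol is on a list of such genes, out of 58233 genes in the table, and they fall into 10 sub-complexes or functional groups. The list was chosen with earlier results of these data known, so shares set beside those of all genes are descriptions. RNA was sequenced from HL‐60, an established cell line of human acute myeloid leukaemia that the labels give as wild type and that was grown in RPMI with 10% foetal calf serum. The 4 groups were untreated cells, cells given 100 nM all‐trans retinoic acid (ATRA, a ligand of the retinoic acid receptors), cells given 500 nM palbociclib (which inhibits the cell cycle kinases CDK4 and CDK6), and cells given both agents at these doses, called the combination below. Each group had 3 libraries, made after 3 h of treatment. The labels name no vehicle for the untreated cells. The study describes its data in general as coming from independent experiments and these libraries as triplicates, and neither it nor the labels say whether the libraries of a group came from separate cultures, so the p-values measure the spread between these libraries.

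An origin is prepared for replication in G1, when the origin recognition complex, CDC6 and CDT1 load the MCM helicase onto DNA and geminin (GMNN) later stops CDT1 from doing so again. At the start of S phase the kinase CDC7 with its activator DBF4, helped by TICRR, TOPBP1 and RECQL4, brings CDC45 and the GINS complex to the helicase, and the origin fires. DNA polymerase alpha-primase then lays down primers, polymerase epsilon extends the leading strand and polymerase delta the lagging strand, both held by the ring-shaped clamp PCNA. Many of these genes are known targets of the E2F transcription factors, which the retinoblastoma protein holds back until CDK4 and CDK6 phosphorylate it.

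The table gives RPKM values, that is read numbers scaled by the length of the gene and the size of the library, which the authors rounded to whole numbers. The values of a library summed to between 358455 and 390247 RPKM, and these sums do not give the number of reads. The study states an average read number per sample but not that of each library, and without counts the error of a value is given as the SD over the 3 libraries. The myeloid markers MPO (1077 to 1579 RPKM over the 12 libraries), PRTN3 (195 to 310) and SPI1 (80 to 112) were present, ELANE was at 0 to 1 RPKM, and all 11 markers of T cells, B cells, erythroid cells and megakaryocytes were at 0. The retinoid response gene DHRS3 averaged 0.333 RPKM in untreated cells and 45 with ATRA, and CD38 averaged 2.33 and 16.7, while the retinoid response genes CYP26A1 and CYP26B1 were at 0 in every library. CCNE1, which encodes cyclin E, averaged 14.3 RPKM in untreated cells and 5 with palbociclib, and it was also lower with ATRA alone, at 8.33. A gene was tested if it reached 5 RPKM in at least 3 libraries, which left 7820 genes. Of the 48 members 47 were tested, and ORC4, which encodes a subunit of the origin recognition complex, stayed at 3 to 4 RPKM in every library and was not. GINS1 and GINS3 reached 5 RPKM only in untreated and ATRA libraries, the groups where they were high, so that their entry into the test was not independent of a drop with palbociclib or the combination. GINS4 reached 5 RPKM in 5 libraries, and in none with palbociclib. With a minimum of 1 RPKM in its place all 48 could be tested.

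After 3 h of palbociclib, 29 of the 47 tested members had fallen and 0 had risen, at an adjusted p under 0.05 from limma with Benjamini-Hochberg adjustment over all genes. Over all 7820 genes tested, 3.16% were called lower and 0.908% higher. At an unadjusted p under 0.05, 38 of the 47 were lower and 0 higher, against 790 lower and 569 higher of all 7820 genes. At a stricter adjusted p under 0.001, 9 of the 47 were called lower, against 0.486% of all genes, and these were ORC1, GINS3, PRIM1, POLD3, RFC4, RFC5, DSCC1, FEN1 and CLSPN. Of these, GINS3 entered the test only through untreated and ATRA libraries, as did GINS1 among the 29. The log2 fold changes of the 47 ran from −1.35 for CLSPN to −0.01 for POLD2, with a median of −0.55, while the median over all genes tested was 0.00. In percent of the untreated mean, the members stood at a median of 67.9%, with a range from 39.1 to 99.4%. In 37 of the 47 every palbociclib library lay below every untreated library, against 9.48% of all genes tested. The libraries come from bulk cells, so fewer cells in S phase and less of these RNAs per cell cannot be told apart. With the minimum at 1 RPKM, 28 of 48 members were called lower, without TOPBP1, against 282 of all 14003 genes then tested. When the libraries of these 2 groups were fitted alone, 19 of 47 were called lower, against 147 of all 7820 genes. The calls of CDT1, CDC7, GINS1, RECQL4, TOPBP1, POLA2, PCNA, RFC2, RPA1 and TIMELESS were lost in that fit (adjusted p 0.0503 to 0.099 from limma).

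**Figure D1:**
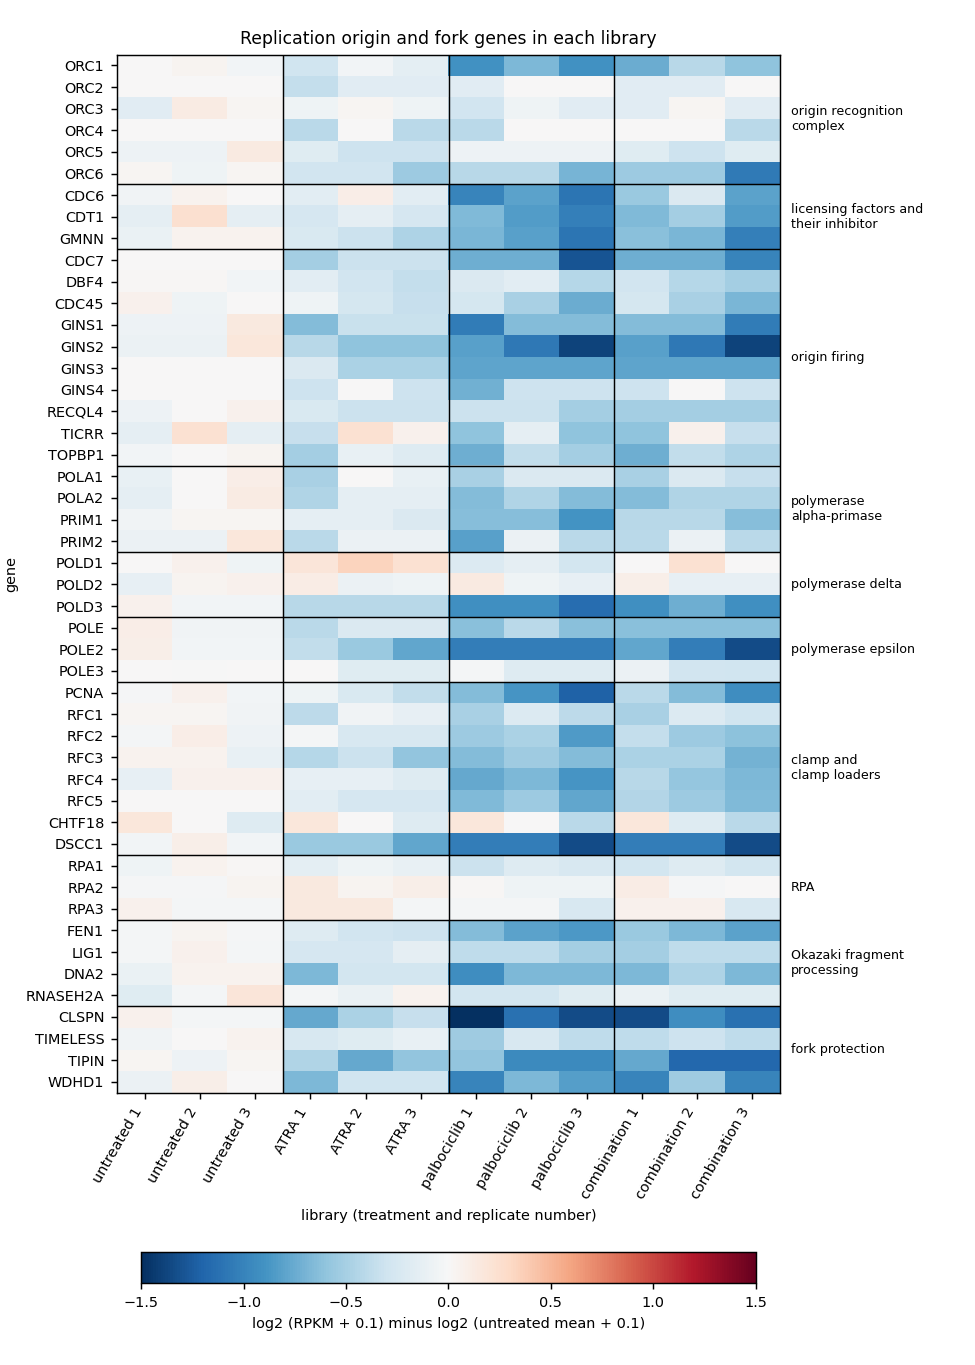
Each row is a gene and each column a library, and the colour gives log2 (RPKM + 0.1) minus that of the untreated mean, from −1.5 (blue) to 1.5 (red). The 3 palbociclib and 3 combination columns are blue in most rows, with CLSPN down to 5 RPKM from 16 and DSCC1 to 4 from 11, while the POLD2, RPA2 and RPA3 rows stay near white.

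The sub-complexes differed in how far their members had moved with palbociclib. All 4 fork protection genes fell (median log2 fold change −0.83), as did all 3 licensing genes (median −0.86), 6 of 8 genes of the clamp and its loaders (median −0.64), 3 of 4 Okazaki fragment genes (median −0.59) and 6 of 10 origin firing genes (median −0.52). Polymerase epsilon had 2 of 3 genes called lower (median −0.55) and polymerase alpha-primase 2 of 4 (median −0.50). The origin recognition complex had 1 of 5 tested genes called lower (median −0.17), polymerase delta 1 of 3 (median −0.20) and RPA 1 of 3 (median −0.10). Over all 7820 genes tested, 3.16% were called lower with palbociclib and the median was 0.00. Among the origin firing genes called, GINS1 and GINS3 entered the test only through untreated and ATRA libraries. The counts and medians of the sub-complexes are a description of small groups, and no test was run between the sub-complexes.

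The start regions of the genes were searched for the short words that E2F proteins bind, because the members moved together with a CDK4 and CDK6 inhibitor. The words were TTTCCCGC, TTTCGCGC, TTTGCCGC and TTTGGCGC, searched on both strands in 300 bases around each RefSeq start (250 before it and 50 after it, build GRCh38.p14). Words on opposite strands can share letters, but no member held more than 1. Of the 48 members 41 were in the table of start regions, and 15 of these (36.6%) held a word, against 1164 of 35116 start regions of all genes (3.31%). Among all tested genes, taken like the members with 1 start region each, 339 of 5256 held a word (6.45%). Among the members called lower with palbociclib 13 of 25 held a word (52%), and among those tested and not called 2 of 15 did (13.3%), ORC3 and POLA1. The 13 include GINS1 and GINS3, which entered the test only through untreated and ATRA libraries, so this share is not independent of the filter. Over all genes tested, with these members included, 57 of 200 genes called lower (28.5%) and 280 of 5010 genes not called (5.59%) held a word. The words, like the members, were chosen with earlier results of these data known, so these shares are descriptions and not a test. A match is a description of the letters, and no binding was measured. The lines below give 100 bases before and 20 bases after the start, read in the direction of the gene, for 6 members that were called lower and hold a word there, shown in capitals (CLSPN to CDT1), for 2 called lower without a word (ORC1, FEN1) and for 2 not called and without a word (POLD2, ORC2). They were picked after the values were seen, to show the word beside genes with large and with small changes. The 2 members not called that hold a word, ORC3 and POLA1, are not among these lines.
CLSPN (chr1:35769959-35770078, minus strand): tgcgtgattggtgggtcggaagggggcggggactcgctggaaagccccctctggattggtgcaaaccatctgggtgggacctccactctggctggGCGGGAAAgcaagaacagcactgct
GINS2 (chr16:85688935-85689054, minus strand): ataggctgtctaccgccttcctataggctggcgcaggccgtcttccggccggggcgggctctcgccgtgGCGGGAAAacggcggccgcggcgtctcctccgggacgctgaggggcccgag
POLE2 (chr14:49688195-49688314, minus strand): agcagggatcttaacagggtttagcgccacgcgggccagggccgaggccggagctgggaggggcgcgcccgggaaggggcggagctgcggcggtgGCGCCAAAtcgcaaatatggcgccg
PCNA (chr20:5126603-5126722, minus strand): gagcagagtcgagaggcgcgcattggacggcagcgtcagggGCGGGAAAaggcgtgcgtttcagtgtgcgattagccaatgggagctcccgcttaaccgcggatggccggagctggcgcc
CDC6 (chr17:40287779-40287898, plus strand): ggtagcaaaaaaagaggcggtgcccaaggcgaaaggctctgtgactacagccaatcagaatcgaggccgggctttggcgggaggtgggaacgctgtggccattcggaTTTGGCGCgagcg
CDT1 (chr16:88803689-88803808, plus strand): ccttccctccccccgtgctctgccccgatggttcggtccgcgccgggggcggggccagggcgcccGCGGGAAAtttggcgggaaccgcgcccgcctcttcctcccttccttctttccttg
ORC1 (chr1:52404404-52404523, minus strand): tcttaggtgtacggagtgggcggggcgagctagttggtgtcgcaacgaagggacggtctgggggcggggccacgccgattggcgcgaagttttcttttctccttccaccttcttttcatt
FEN1 (chr11:61792811-61792930, plus strand): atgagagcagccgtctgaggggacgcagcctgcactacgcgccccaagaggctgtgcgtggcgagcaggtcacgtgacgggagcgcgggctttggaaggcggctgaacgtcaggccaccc
POLD2 (chr7:44123529-44123648, minus strand): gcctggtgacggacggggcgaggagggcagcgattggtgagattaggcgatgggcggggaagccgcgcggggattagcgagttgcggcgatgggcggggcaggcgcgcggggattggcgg
ORC2 (chr2:200963641-200963760, minus strand): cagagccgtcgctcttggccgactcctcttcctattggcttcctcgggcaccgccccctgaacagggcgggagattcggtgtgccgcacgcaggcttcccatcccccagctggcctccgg

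**Figure D2:**
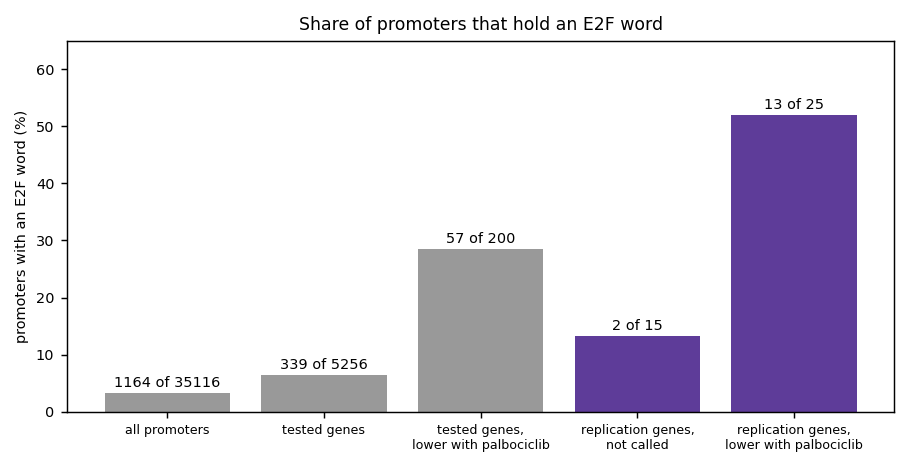
Bars give the percent of 300-base start regions that hold an E2F word, from 0, with the counts above them, for all genes and for the replication genes by their call with palbociclib. The share was 52% in the replication genes called lower and 13.3% in those not called. GINS1 and GINS3, which entered the test only through untreated and ATRA libraries, are among those called lower with a word.

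The licensing genes fell as a group. CDC6, the loader that joins the origin recognition complex in G1, was at 27, 29 and 28 RPKM in the untreated libraries and at 14, 16 and 13 RPKM with palbociclib. The groups did not overlap, and the log2 fold change was −0.97 (SE 0.14, adjusted p = 0.00327 from limma). CDT1, its partner in loading the helicase, was at 13, 17 and 13 RPKM without and at 9, 8 and 7 RPKM with palbociclib, a log2 fold change of −0.83 (SE 0.13, adjusted p = 0.00506). The word in its start region and that of CDC6 can be read in the lines above. GMNN, the inhibitor of CDT1, was at 36, 40 and 40 RPKM without and 24, 22 and 18 RPKM with palbociclib, and its log2 fold change was −0.86 (SE 0.12, adjusted p = 0.00369). The loading factors and their inhibitor lay at like shares of the untreated mean, 51.2% for CDC6, 55.8% for CDT1 and 55.2% for GMNN.

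In the origin recognition complex the genes did not move alike. ORC1 (chr1:52372829-52404423 on GRCh38, minus strand), the subunit whose protein is known to cycle in human cells, was at 32, 33 and 31 RPKM in untreated cells and at 17, 20 and 17 RPKM with palbociclib. It fell to 56.2% of the untreated mean, a log2 fold change of −0.83 (SE 0.10, adjusted p = 0.000992 from limma). The start region of ORC1 holds no exact match to the 4 words, and near matches were not searched. ORC2, a core subunit, was at 9, 9 and 9 RPKM without and 8, 9 and 9 RPKM with palbociclib, and the groups overlapped. Its log2 fold change was −0.06 with a 95% interval from −0.23 to 0.12, so a change as large as that of ORC1 lies outside the interval. ORC3 (log2 fold change −0.17, 95% interval −0.37 to 0.03) and ORC5 (−0.07, −0.22 to 0.09) were not called either. ORC6, the smallest subunit, was lower in every palbociclib library (11, 11 and 9 RPKM) than in every untreated library (15, 14 and 15 RPKM) but did not pass the test (log2 fold change −0.51, SE 0.14, adjusted p = 0.0738).

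Among the firing factors, the GINS complex, which joins CDC45 and the MCM ring to form the active helicase, had 3 of its 4 genes called lower. This count is not independent of the filter, because GINS1 and GINS3 entered the test only through untreated and ATRA libraries. GINS2 was at 10, 10 and 12 RPKM in untreated cells and at 6, 5 and 4 RPKM with palbociclib, a log2 fold change of −1.09 (SE 0.17, adjusted p = 0.00506 from limma). GINS3 was at 7 RPKM in all 3 untreated libraries and at 4 RPKM in all 3 palbociclib libraries, a log2 fold change of −0.79 (SE 0.08, adjusted p = 0.000452), and its zero spread in both groups is that of rounded values. GINS1 went from 6, 6 and 7 RPKM to 3, 4 and 4 RPKM (log2 fold change −0.78, SE 0.16, adjusted p = 0.0198). At such levels a rounding step of 1 RPKM is a large part of the value, and the GINS1 call was lost without untreated replicate 1, 2 or 3 or palbociclib replicate 1 (adjusted p 0.0542 to 0.0732). GINS4 was at 5, 5 and 5 RPKM without and 3, 4 and 4 RPKM with palbociclib and was not called (adjusted p = 0.108).

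The kinase that triggers firing and its activator moved by different amounts. CDC7, the kinase, was at 10 RPKM in all 3 untreated libraries and at 6, 6 and 4 RPKM with palbociclib, and its log2 fold change was −0.92 (SE 0.14, adjusted p = 0.00583 from limma). DBF4, the subunit that activates it, was at 26, 26 and 25 RPKM without and 22, 23 and 19 RPKM with palbociclib, the smallest change of the firing group (log2 fold change −0.27, SE 0.08, adjusted p = 0.11). RECQL4, a helicase needed for firing, fell from 19, 20 and 21 RPKM to 16, 16 and 14 RPKM (log2 fold change −0.38, SE 0.06, adjusted p = 0.00826). TOPBP1, the scaffold that recruits GINS, fell from 39, 40 and 41 RPKM to 24, 31 and 28 RPKM (log2 fold change −0.54, SE 0.13, adjusted p = 0.0426), and this call was lost without any of untreated replicates 1, 2 and 3, palbociclib replicates 1 and 3, ATRA replicates 2 and 3 or combination replicate 3 (adjusted p 0.0514 to 0.138). CDC45, the helicase cofactor, lay at 35, 30 and 25 RPKM with palbociclib, below the untreated 44, 40 and 42 RPKM, and was not called (adjusted p = 0.0674). TICRR, which carries the signal of the cyclin-dependent kinases to the origin, overlapped between the groups (7, 9 and 7 RPKM against 5, 7 and 5 RPKM).

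In the 3 polymerases the change was uneven among subunits of the same enzyme. POLD3 (chr11:74493851-74669117, plus strand), an accessory subunit of polymerase delta, was at 14, 13 and 13 RPKM in untreated cells and at 7, 7 and 6 RPKM with palbociclib. Its log2 fold change of −0.99 (SE 0.08) had the smallest adjusted p of the 47 members in this comparison, 0.000127 from limma. POLD1, the catalytic subunit of the same polymerase, was at 23, 24 and 22 RPKM without and 20, 21 and 19 RPKM with palbociclib and was not called (log2 fold change −0.20, 95% interval −0.37 to −0.03, adjusted p = 0.186). POLD2, another accessory subunit, was at 51, 57 and 58 RPKM against 61, 53 and 51 RPKM, with a log2 fold change of −0.01 (95% interval −0.21 to 0.19). The interval of POLD3, −1.17 to −0.82, lay apart from those of both other subunits.

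Polymerase epsilon showed the same kind of split. POLE2, its second subunit, was at 11, 10 and 10 RPKM in untreated cells and at 5 RPKM in all 3 palbociclib libraries, a log2 fold change of −1.03 (SE 0.14, adjusted p = 0.00243 from limma). POLE, the catalytic subunit, fell from 10, 9 and 9 RPKM to 6, 7 and 6 RPKM (log2 fold change −0.55, SE 0.08, adjusted p = 0.00504). POLE3, a small histone-fold subunit, was at 83, 82 and 83 RPKM without and 81, 72 and 72 RPKM with palbociclib. It was not called (log2 fold change −0.14, 95% interval −0.31 to 0.03). In polymerase alpha-primase, PRIM1, the catalytic primase subunit, went from 18, 19 and 19 RPKM to 12, 12 and 10 RPKM, a log2 fold change of −0.72 (SE 0.08, adjusted p = 0.000976). POLA2, the B subunit, fell by 0.58 on the log2 scale (SE 0.11, adjusted p = 0.0137), a call that was lost without untreated replicate 2 or 3 or palbociclib replicate 1 or 3 (adjusted p 0.0539 to 0.0599), and it shares 2555 of its 12006 exonic bases with other annotated genes, ENSG00000285816 on the same strand and ENSG00000287917 on the other. POLA1, the catalytic polymerase subunit, was at 13, 14 and 15 RPKM against 10, 12 and 12 RPKM and was not called (adjusted p = 0.245). PRIM2, the large primase subunit, was at 3 to 5 RPKM with palbociclib and 5 to 6 RPKM without.

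PCNA (chr20:5114953-5126626, minus strand), the clamp, had the highest level per length of the 48 genes, and its 261, 276 and 256 RPKM in untreated cells became 168, 143 and 114 RPKM with palbociclib. The groups were far apart, although the palbociclib libraries differed from each other by more than the untreated ones, and the log2 fold change was −0.92 (SE 0.15, adjusted p = 0.00768 from limma). The loader RFC, which opens the clamp, has a large subunit and 4 small ones. The small subunits all fell, RFC2 by 0.62, RFC3 by 0.61, RFC4 by 0.77 and RFC5 by 0.66 on the log2 scale (SE 0.11, 0.09, 0.08 and 0.07). RFC4 went from 22, 25 and 25 RPKM to 14, 15 and 13 RPKM (adjusted p = 0.000523) and RFC5 from 19, 19 and 19 RPKM to 12, 13 and 11 RPKM (adjusted p = 0.000671). The large subunit RFC1, at 20, 20 and 19 RPKM against 14, 17 and 15 RPKM, did not pass the test (log2 fold change −0.36, SE 0.10, adjusted p = 0.0856).

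DSCC1 and CHTF18 belong to an alternative clamp loader that is linked to sister chromatid cohesion, and they had the largest and the smallest change of the clamp group. DSCC1 was at 10, 11 and 10 RPKM in untreated cells and at 5, 5 and 4 RPKM with palbociclib (log2 fold change −1.14, SE 0.12, adjusted p = 0.000493 from limma). CHTF18 was at 9, 8 and 7 RPKM against 9, 8 and 6 RPKM, and its log2 fold change of −0.07 had a wide interval, from −0.47 to 0.32. RPA, which coats the unwound strands, moved little. RPA1, its large subunit, fell from 36, 39 and 38 RPKM to 30, 33 and 32 RPKM (log2 fold change −0.25, SE 0.06, adjusted p = 0.0343), and this call was lost without untreated replicate 2 or 3, palbociclib replicate 1 or 3 or ATRA replicate 2 or 3 (adjusted p 0.0517 to 0.101). RPA2 was at 63, 63 and 66 RPKM against 65, 61 and 61 RPKM, with a log2 fold change of −0.04 and an interval from −0.16 to 0.08. RPA3, the small subunit, was at 15 to 16 RPKM without and 13 to 15 RPKM with palbociclib.

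Of the genes that finish Okazaki fragments, FEN1 (chr11:61792911-61797238, plus strand), the flap endonuclease, was at 75, 79 and 76 RPKM in untreated cells and at 49, 44 and 42 RPKM with palbociclib. It fell to 58.7% of the untreated mean (log2 fold change −0.77, SE 0.07, adjusted p = 0.000334 from limma). DNA2, a nuclease that trims long flaps, fell from 9, 10 and 10 RPKM to 5, 6 and 6 RPKM (log2 fold change −0.76, SE 0.12, adjusted p = 0.00686). LIG1, the ligase that seals the nick, was at 14, 15 and 14 RPKM and fell to 11, 11 and 10 RPKM, with a log2 fold change of −0.42 (SE 0.07, adjusted p = 0.00583). RNASEH2A, the catalytic subunit of the enzyme that removes RNA from DNA, had the smallest change of the group, at 17, 19 and 22 RPKM against 16, 16 and 17 RPKM (adjusted p = 0.17). It shares 1095 of its 2056 exonic bases with THSD8 on the same strand, where the reads of the 2 genes cannot be told apart.

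Fork protection held the largest change of the 47 tested members. CLSPN (chr1:35720218-35769978, minus strand) encodes claspin, the adaptor that carries the signal from a stalled fork to the checkpoint kinase. It was at 16, 15 and 15 RPKM in untreated cells and at 5, 7 and 6 RPKM with palbociclib, or 39.1% of the untreated mean, a log2 fold change of −1.35 (SE 0.14, adjusted p = 0.000523 from limma). TIPIN, which binds TIMELESS at the fork, was at 14, 13 and 14 RPKM and fell to 9, 7 and 7 RPKM (log2 fold change −0.84, SE 0.13, adjusted p = 0.00674), and 579 of its 2739 exonic bases are shared with the pseudogene RPL9P25. TIMELESS itself moved least in this group, from 25, 26 and 27 RPKM to 18, 22 and 20 RPKM (log2 fold change −0.38, SE 0.07, adjusted p = 0.0156), a call that was lost without untreated replicate 2 or 3 or palbociclib replicate 3 (adjusted p 0.0531 to 0.0632). WDHD1, which ties polymerase alpha to the helicase, fell from 15, 17 and 16 RPKM to 8, 10 and 9 RPKM (log2 fold change −0.83, SE 0.14, adjusted p = 0.00948).

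**Figure D3:**
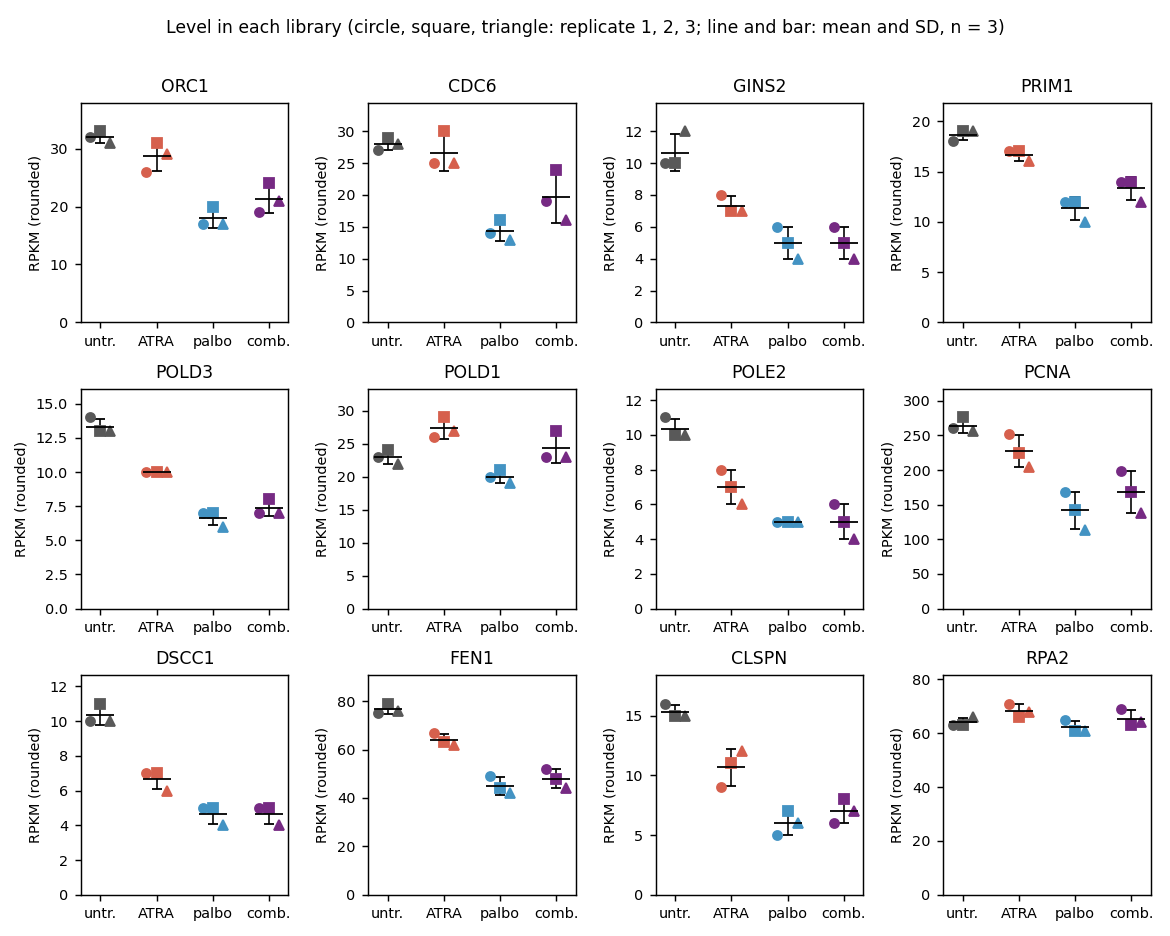
Each panel gives a gene's RPKM, on an axis from 0, in the 3 libraries of the untreated (untr.), ATRA, palbociclib (palbo) and combination (comb.) groups, with the mean and SD as a line and bars. ORC1, CDC6, GINS2, PRIM1, POLD3, POLD1, POLE2, PCNA, DSCC1, FEN1 and CLSPN have palbociclib libraries below all untreated ones, while RPA2 stays between 61 and 71 RPKM in all 12 libraries.

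With ATRA alone, the changes of these genes were smaller. 15 of the 47 tested members had fallen, against 11.6% of all genes tested, and 1 had risen, POLD1, against 8.71%. The median log2 fold change was −0.22, with 43 of 47 below 0, beside a median over all genes of −0.01, and the levels stood at a median of 86% of the untreated mean (64.5 to 119%). No member passed the stricter threshold of 0.001, at which 1.94% of all genes were called lower. The number called lower depended on single libraries, and was 7 without untreated replicate 1, 8 without untreated replicate 2, 7 without untreated replicate 3, 8 without ATRA replicate 2 and 9 without ATRA replicate 3. Over all 7820 genes the number called lower also fell in these fits, from 909 to 612, 674, 699, 589 and 614 in the same order.

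The members with the largest change under ATRA were DSCC1, TIPIN and POLE2, which were also low with palbociclib. DSCC1 was at 7, 7 and 6 RPKM with ATRA, below its untreated 10, 11 and 10 RPKM (log2 fold change −0.63, SE 0.12, adjusted p = 0.0038 from limma). TIPIN was at 10, 8 and 9 RPKM against 14, 13 and 14 RPKM (log2 fold change −0.60, SE 0.13, adjusted p = 0.00951). POLE2 was at 8, 7 and 6 RPKM (log2 fold change −0.56, SE 0.14, adjusted p = 0.0152), and this call was lost without untreated replicate 1 (adjusted p = 0.063) or ATRA replicate 3 (adjusted p = 0.0652). The calls of DSCC1, TIPIN, GINS3 (log2 fold change −0.39), RECQL4 (−0.29), POLD3 (−0.41) and RFC3 (−0.45) held whichever library was left out. RFC3 was the small clamp loader subunit with the strongest change under ATRA, at 28, 30 and 25 RPKM against 39, 39 and 35 RPKM in untreated cells. ORC5, a core subunit of the origin recognition complex, and DBF4 were called lower with ATRA (both log2 fold change −0.27, adjusted p = 0.0219 and 0.0475). With palbociclib their log2 fold changes were −0.07 and −0.27 (adjusted p = 0.7 and 0.11). The ATRA calls of ORC5, DBF4, GINS2, POLE, POLE2, FEN1, LIG1, DNA2 and CLSPN were each lost without some library, with adjusted p up to 0.154 for DBF4.

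Under ATRA alone the licensing genes gave 0 calls in limma, and GMNN had an unadjusted p under 0.05 (0.0217). CDC6 was at 25, 30 and 25 RPKM with ATRA, overlapping its untreated range, and its log2 fold change was −0.07 with an interval from −0.37 to 0.22. CDT1 was at 12, 13 and 12 RPKM and GMNN at 33, 31 and 28 RPKM, with log2 fold changes of −0.20 (SE 0.13) and −0.33 (SE 0.12). ORC1 was at 26, 31 and 29 RPKM (log2 fold change −0.16, SE 0.10, adjusted p = 0.29 from limma). PCNA was at 252, 225 and 205 RPKM, below every untreated library and within the error of the fit (log2 fold change −0.22, SE 0.15, adjusted p = 0.353). POLD1 went the other way, at 26, 29 and 27 RPKM against 23, 24 and 22 RPKM, a log2 fold change of 0.25 (SE 0.08, adjusted p = 0.0411). This call was lost without untreated replicate 1, 2 or 3 or ATRA replicate 2 or 3 (adjusted p 0.0558 to 0.146) and with the minimum at 1 RPKM (adjusted p = 0.0568).

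With the combination, 35 of the 47 tested members had fallen against untreated cells and 0 had risen, beside 17.7% and 12.7% of all genes tested, and at an unadjusted p under 0.05 the numbers were 36 and 0, against 1780 and 1385 of all 7820 genes. The median log2 fold change was −0.51, against −0.01 over all genes, and the levels stood at a median of 70% of the untreated mean, with a range from 45.2 to 106%. At the stricter threshold of 0.001, 15 members were called lower, against 4.28% of all genes. The strongest of these were DSCC1 at 5, 5 and 4 RPKM (log2 fold change −1.14, SE 0.12), CLSPN at 6, 8 and 7 RPKM (−1.13, SE 0.14) and GINS2 at 6, 5 and 4 RPKM (−1.09, SE 0.17). POLE2 followed with 6, 5 and 4 RPKM (−1.05, SE 0.14) and TIPIN with 8, 6 and 6 RPKM (−1.04, SE 0.13). The other 10 were GMNN, GINS3, RECQL4, POLD3, POLE, RFC3, RFC4, RFC5, FEN1 and LIG1, with log2 fold changes from −0.42 for LIG1 to −0.86 for POLD3. They span origin licensing, firing, 2 of the polymerases, the clamp loader and Okazaki fragment processing. GINS3 entered the test only through untreated and ATRA libraries, as did GINS1 among the 35, so these counts are not independent of the filter.

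The 3 comparisons with untreated cells share those 3 libraries, so the members are described by their own values in each. CLSPN had log2 fold changes of −0.53 with ATRA, −1.35 with palbociclib and −1.13 with the combination, and for FEN1 these were −0.26, −0.77 and −0.68. ORC1, with −0.16, −0.83 and −0.59, and CDC6, with −0.07, −0.97 and −0.53, stood nearer to untreated levels with the combination than with palbociclib. The CDC6 call with the combination (adjusted p = 0.0136 from limma) was lost without combination replicate 3 (adjusted p = 0.0503) and in the fit of these 2 groups alone (adjusted p = 0.056). TIPIN, with −0.60, −0.84 and −1.04, and ORC6, with −0.37, −0.51 and −0.72, had their lowest level with the combination. ORC6 was at 10, 10 and 7 RPKM there (SE 0.14, adjusted p = 0.00297), and its call held whichever library was left out. CDC45 (log2 fold change −0.48), ORC5 (−0.22), RFC1 (−0.33) and POLE3 (−0.22) were also called lower with the combination, and these calls were lost in some fits with a library left out. For CDC45 these were the fits without untreated replicate 1 or 3 or combination replicate 2 or 3 (adjusted p 0.0524 to 0.0793). For ORC5 they were those without untreated replicate 3 or combination replicate 2 or 3 (adjusted p 0.0528 to 0.113). For RFC1 they were those without any of the untreated libraries, combination replicate 1 or 3 or palbociclib replicate 3 (adjusted p 0.0501 to 0.112). For POLE3 they were those without any of the untreated libraries, combination replicate 2 or 3, or replicate 2 or 3 of ATRA or palbociclib (adjusted p 0.0594 to 0.15). The 11 tested members with no call against untreated cells were ORC2, ORC3, GINS4, TICRR, POLA1, PRIM2, POLD2, CHTF18, RPA2, RPA3 and RNASEH2A. Their log2 fold changes with the combination ran from −0.35 for POLA1 to 0.03 for RPA2.

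**Figure D4:**
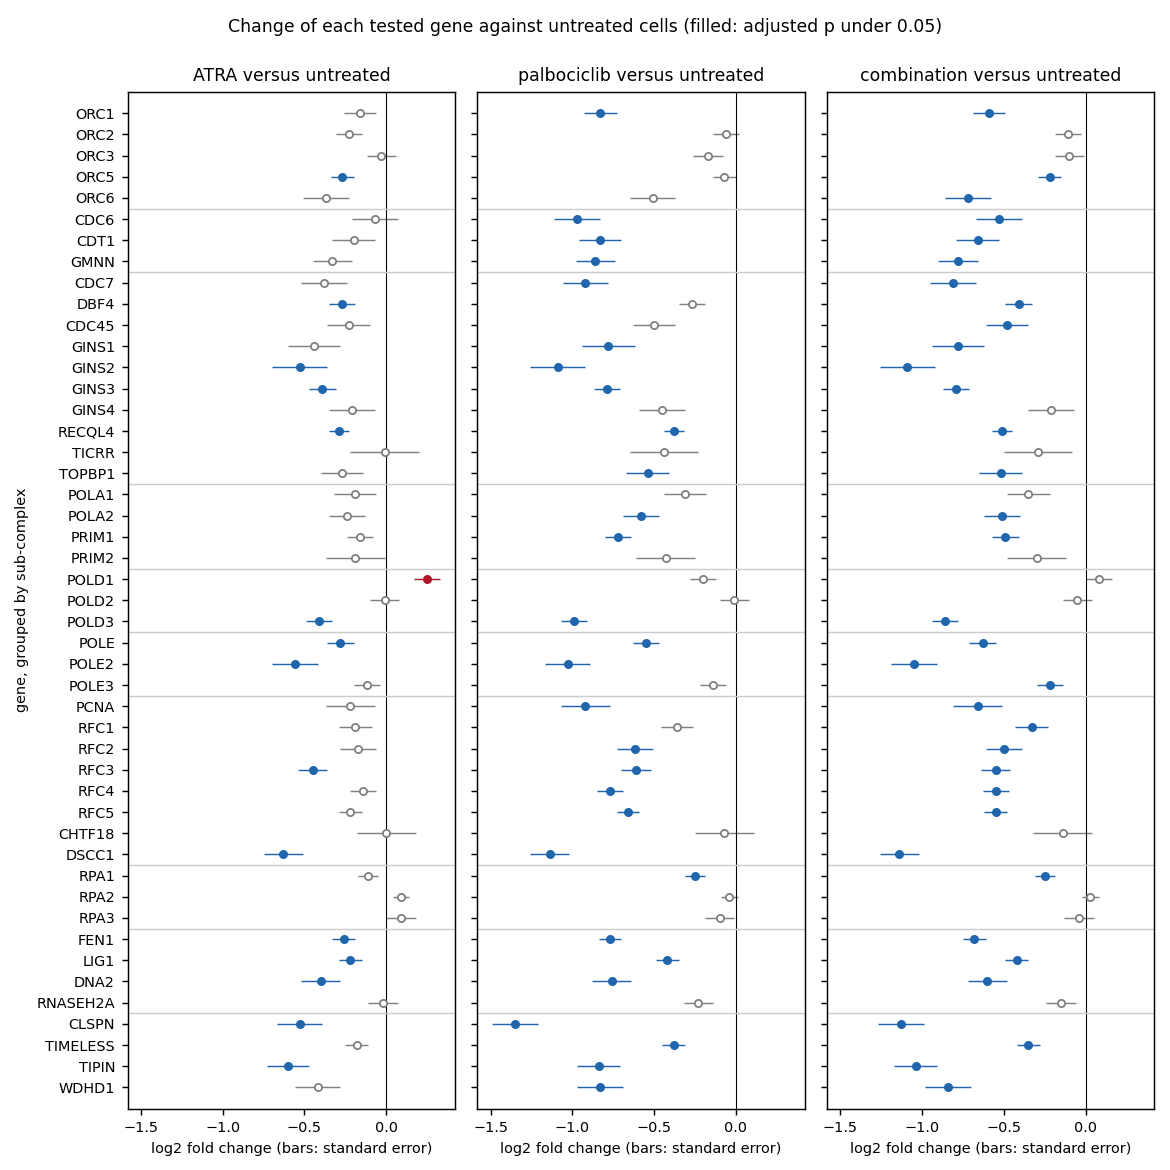
Points give each tested gene's log2 fold change against untreated cells with its standard error, for ATRA, palbociclib and the combination, and filled points have an adjusted p under 0.05. Filled points number 16 with ATRA (POLD1 alone to the right of 0), 29 with palbociclib and 35 with the combination.

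The effect of adding palbociclib to ATRA was read from the combination against ATRA alone. Here 0 of the 47 tested members passed the adjusted threshold in limma, in a comparison where 0.115% of all genes were called lower and 0% higher, and 28 members were lower at an unadjusted p under 0.05, against 243 of all 7820 genes. The median log2 fold change was −0.28, against 0.00 over all genes, and 44 of 47 were below 0. CLSPN was at 6, 8 and 7 RPKM with the combination and 9, 11 and 12 RPKM with ATRA (log2 fold change −0.60, SE 0.14, adjusted p = 0.276). FEN1 was at 52, 48 and 44 RPKM against 67, 63 and 62 RPKM (−0.42, SE 0.07, adjusted p = 0.0811). POLD3 was at 7, 8 and 7 RPKM against 10 RPKM in each ATRA library (−0.45, SE 0.08, adjusted p = 0.0811). In these genes the 2 groups did not overlap, which held for 21 of the 47 and for 2.52% of all genes. Libraries with the same replicate number deviated together among the treated groups. In 38 of the 47 members the combination was below ATRA in all 3 same-numbered pairs, against 11.6% of all genes, and 0 members were above in all 3, against 11.3%. With the replicate number as a block, 4 members were called lower, against 50 of all 7820 genes. They were ORC1 (adjusted p = 0.02), POLD3 (0.0324), DSCC1 (0.02) and FEN1 (0.0181). Without the block, POLD3 was called lower without palbociclib replicate 3 (adjusted p = 0.0383), and GINS3, at 4 RPKM in each combination library against 6, 5 and 5 RPKM, with the minimum at 1 RPKM (adjusted p = 0.0365). When the block was fitted to the 9 treated libraries alone, a fit chosen after seeing the data, 14 were called lower, against 143 of all 7820 genes. These were ORC1, CDC6, GMNN, TOPBP1, PRIM1, POLD3, POLE3, PCNA, RFC4, DSCC1, RPA1, FEN1, CLSPN and TIPIN.

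The reverse question, what ATRA added to palbociclib, gave smaller differences. The median log2 fold change of the combination against palbociclib was 0.05 over the 47 tested members. POLD1 was called higher and 0 members were called lower, beside 5.86% and 6.64% of all genes tested, and 1 member was lower and 5 were higher at an unadjusted p under 0.05, against 1053 lower and 805 higher of all 7820 genes. POLD1 was at 23, 27 and 23 RPKM with the combination and 20, 21 and 19 RPKM with palbociclib (log2 fold change 0.28, SE 0.08, adjusted p = 0.0343 from limma). The call was lost without combination replicate 2, palbociclib replicate 1 or 3 or ATRA replicate 3 (adjusted p 0.0519 to 0.128). CDC6 was at 19, 24 and 16 RPKM against 14, 16 and 13 RPKM, higher in each same-numbered pair by factors of 1.36, 1.5 and 1.23. Its groups overlapped, and with a log2 fold change of 0.44 (SE 0.14) it missed the threshold without the block (adjusted p = 0.0602) and passed it with the block (adjusted p = 0.00517), with median ratio scaling (0.0471) and without combination replicate 3 (0.0194). With the block ORC1 (adjusted p = 0.0155) and PRIM1 (0.0293) were also called higher, so that 4 members were called higher and 0 lower, against 790 higher and 1049 lower of all 7820 genes. With the block in the 9 treated libraries alone 7 were called higher, ORC1, CDC6, PRIM1, PCNA, RFC4, RPA2 and POLD1, and 4 lower, ORC5, ORC6, POLE3 and TIPIN, against 1228 higher and 1585 lower of all genes. PCNA was at 199, 169 and 138 RPKM with the combination against 168, 143 and 114 RPKM. For DSCC1, GINS2 and GINS3 the combination and palbociclib means were the same, and the intervals of the log2 difference were −0.26 to 0.26, −0.37 to 0.37 and −0.18 to 0.18.

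Whether the 2 agents added up on the log2 scale was tested as the change with palbociclib in the presence of ATRA minus that in its absence. A value above 0 means that the combination lay above the sum of the single changes. The median departure was 0.30 over the 47 tested members and 0.00 over all genes, and 43 of 47 were above 0. No member was called, as no gene was among the 7820 (0% in both directions), and 18 members were above 0 at an unadjusted p under 0.05, against 154 of all genes. With the replicate block 0 members and 0 of all genes were called as well. At an unadjusted p under 0.05, 28 members were above 0 in that fit. No count over all genes was made there, so the rise from 18 cannot be read as particular to the members. The block also raised the number of all genes called lower with ATRA, from 909 to 1619. CLSPN had a departure of 0.75 (95% interval 0.30 to 1.20). POLD3 had a departure of 0.55 (0.30 to 0.79) and the smallest unadjusted p of the members, 0.000508 from limma. DSCC1 had a departure of 0.63 (0.26 to 1.00) and RFC3 of 0.50 (0.23 to 0.77). The comparisons that enter the departure share libraries, and at 4 to 6 RPKM the levels of DSCC1 and GINS2 under palbociclib and the combination lie within a few rounding steps of each other.

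**Figure D5:**
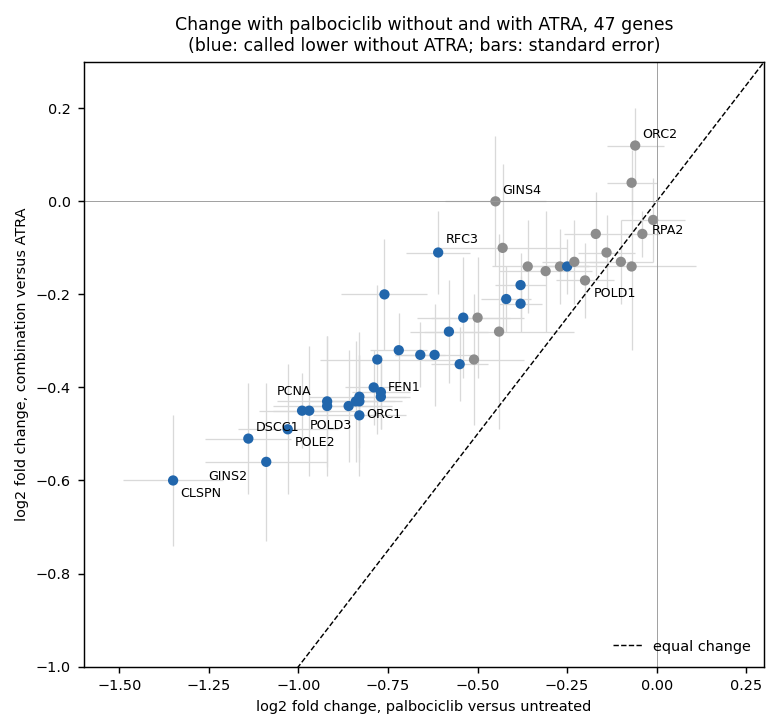
Each point is a tested gene, with its log2 fold change for palbociclib against untreated cells on the x axis and for the combination against ATRA on the y axis, and bars for the standard error. Most points lie above the dashed line of equal change, as CLSPN does at −1.35 and −0.60, while POLD2 lies at −0.01 and −0.04.

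Other genes of DNA replication were set beside the members. With palbociclib 3.16% of all 7820 genes tested were called lower and 0.908% higher, with a median log2 fold change of 0.00. The 6 subunits of the MCM2-7 helicase all fell with palbociclib, by a median of 0.69 on the log2 scale, from −1.04 for MCM4 to −0.51 for MCM7. Of 17 further replication genes 14 were tested, and 5 fell with palbociclib and 0 rose, with a median log2 fold change of −0.26. They were MCM10 (−1.16), which works at the helicase, DONSON (−0.94), a firing factor, ATAD5 (−0.74), which unloads PCNA, MCMBP (−0.60), which binds MCM subunits, and TONSL (−0.45), which guards new chromatin. The accessory subunits POLE4, RNASEH2B and RNASEH2C, picked after their values were seen, had log2 fold changes of −0.01, 0.00 and 0.00, beside their partners POLE2 and POLE, which fell, and RNASEH2A, which was not called. POLD4, MTBP and MMS22L were below the minimum and not tested.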

How the data were processed

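Poly(A) RNA of 12 HL‐60 libraries was sequenced. Per the labels and the study's methods, the authors mapped reads to hg38 with HISAT2 and counted them per gene with HTSeq (versions and annotation not given in the sources used here). The deposited score values are RPKM rounded to whole numbers (a step of 1), not counts. Groups and replicate numbers came from the labels. Limma 3.58.1 in R 4.3.3 was fitted to log2(RPKM + 0.1), with 1 mean per group over all 12 libraries, eBayes with trend, and Benjamini-Hochberg adjustment over 7820 genes within each of 6 comparisons. Log2 fold changes thus refer to RPKM + 0.1, and intervals are 95%. Genes were called at an adjusted p under 0.05. The self-test on simulated rounded data is not quoted. Library-by-library values are given for the largest and smallest change in each sub-complex and for members past 0.001, and for others where space allowed. The members, lists and words were chosen with earlier results of these data known. Python 3.11.15 handled tables and plots. Alternatives are given in the closing section.

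Deviations from the group mean over all tested genes correlated between same-numbered libraries by 0.782 to 0.908 (ATRA and combination), 0.497 to 0.751 (ATRA and palbociclib) and 0.438 to 0.702 (palbociclib and combination). Libraries of these groups were taken as paired by number only in the counts of same-numbered pairs and in the fits with a block. The main fits used no pairing. For an untreated and a treated library the range was 0.0453 to 0.367, not all above 0.1. Replicates of a group shared 5.56 to 15.5% of identical values over 2660 well expressed genes, and none was a copy of another. Coordinates are from GENCODE v44 (GRCh38), and start regions from RefSeq (GRCh38.p14).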

Additional observations from a re-analysis of the deposited data

How the results depend on the processing

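Each count was recomputed with other filters, pseudocounts, scaling, thresholds, sets of libraries and a block for the replicate number, and none of the 81 single-gene calls changed sign. With a threshold of 0.001 the number of members called lower was 0 for ATRA, 9 for palbociclib and 15 for the combination against untreated cells. Over all 7820 genes these numbers were 152, 38 and 335. POLD1 was not called higher with ATRA or in the combination against palbociclib (0 members, against 217 and 165 of all genes). With the minimum at 1 RPKM, and with no filter, 0 members were higher with ATRA, against 861 of 14003 and 846 of 15220 genes. In each of these fits 1 member was lower in the combination against ATRA, against 30 of all genes. Without a filter 0 members were higher in the combination against palbociclib, against 598 of 15220 genes. With median ratio scaling 2 were, against 477 of 7820 genes. With only the 2 groups compared 19 members, against 147 of all 7820 genes, were lower with palbociclib, and 0 members were higher in the combination against palbociclib, against 326 of all genes.

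With the replicate block, 26 members were lower with ATRA, 37 with palbociclib and 37 with the combination against untreated cells, where the numbers are not shown to pair the libraries. Over all 7820 genes the block gave 1619, 636 and 1992 lower in these comparisons, against 909, 247 and 1381 without it. It gave 4 members lower in the combination against ATRA and 4 higher in the combination against palbociclib, against 50 and 790 of all genes. In the 9 treated libraries alone, added after seeing the data, the block gave 14 members lower against ATRA, and 7 higher and 4 lower against palbociclib. Over all genes these numbers were 143, 1228 and 1585.

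When each library was left out in turn, the members called lower numbered 7 to 16 with ATRA, 24 to 29 with palbociclib, 30 to 36 with the combination, and 0 to 1 in the combination against ATRA. Those called higher numbered 0 to 1 with ATRA and 0 to 2 in the combination against palbociclib. Over all 7820 genes the number called lower ran from 589 to 1011 with ATRA, 141 to 235 with palbociclib and 1014 to 1472 with the combination. The 1 call against ATRA came without palbociclib replicate 3, where 13 of all genes were lower. The 2 against palbociclib came without combination replicate 3, where 340 of all genes were higher. Of the counts and alternatives run, those not printed here stayed within 1.5 times their value. Rounding to 1 RPKM limits the genes under about 10 RPKM most, and without counts no error could be set for a single library.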

Other observations

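Within the treated groups the same replicate numbers stood apart in opposite directions for different members. PCNA was highest in replicate 1 and lowest in replicate 3 with ATRA (252, 225 and 205 RPKM), with palbociclib (168, 143 and 114 RPKM) and with the combination (199, 169 and 138 RPKM). CDC45 was ranked in the same way, at 40, 35 and 33 RPKM, at 35, 30 and 25 RPKM and at 35, 30 and 26 RPKM. TOPBP1 was lowest in replicate 1 and highest in replicate 2, at 28, 37 and 35 RPKM with ATRA, 24, 31 and 28 RPKM with palbociclib and 24, 31 and 29 RPKM with the combination. In the untreated libraries PCNA was at 261, 276 and 256 RPKM and TOPBP1 at 39, 40 and 41 RPKM. The labels do not say what libraries with the same number share.

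The untested member ORC4 was at 4, 4 and 4 RPKM in untreated cells, 3, 4 and 3 RPKM with ATRA, 3, 4 and 4 RPKM with palbociclib and 4, 4 and 3 RPKM with the combination.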
